A study of Mus musculus with 3 samples.

Results

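Messenger RNA of the enzymes that run glycolysis and the pentose phosphate pathway was followed across 3 sorted immune cell populations of the mouse gut epithelium. The set holds 40 genes of the 37224 counted, chosen by symbol as the enzymes, isozymes and flux regulators of the 2 pathways. It includes the pyruvate dehydrogenase kinases, which set whether pyruvate enters the mitochondrial acetyl-CoA pool. All 3 populations came from RAG-2 null mice, which cannot rearrange antigen receptors and so lack mature T and B cells. iCD8a cells were sorted as CD45+CD8alpha+, ILC1 (group 1 innate lymphoid cells) as NKp46+NK1.1+, and CD11b+ myeloid cells as CD45+CD8alpha-CD11b+. The sources used here do not give age, sex or the number of mice behind each sort. There was 1 RNA-seq library per population, so no value below has a replicate and no p-value was computed. Folds carry a 95% counting interval, which covers read counting and not the spread between mice or sorts.

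Gene counts came to 21678113 in iCD8a and 22181660 in ILC1, against 30511296 in CD11b+. Genes of the sort markers differed between the libraries, some sharply and some less so. Levels are given as CPM, gene counts scaled for depth and composition. Cd8a reached 2636 CPM in iCD8a, with 4.41 in ILC1 and 28.2 in CD11b+. Ncr1, which encodes NKp46, stood at 1.44 CPM in iCD8a and 396 in ILC1, against 2.23 in CD11b+, and the monocyte and macrophage receptor gene Csf1r at 1.44, 14.4 and 960 CPM in the same order. Other markers were less exclusive. Itgam, which encodes CD11b, stood at 362, 187 and 845 CPM, and Klrb1c, which encodes NK1.1, at 207, 546 and 14.7 CPM in that order. Of 10 myeloid markers, 8 were lower and 1, Fcer1g, was higher in iCD8a than in CD11b+. Of all tested genes, 20.6% were lower and 16.7% higher there. Rag2 had 0 counts in each library, which allows up to 0.127 CPM in iCD8a and 0.136 in ILC1, against 0.106 in CD11b+ (3 counts). With no RAG-2-sufficient library to set beside them this checks the genotype only weakly. The mitochondrial genome's own genes made up 1.604% of gene counts in iCD8a and 2.09% in ILC1, against 9.53% in CD11b+. Transcripts of gut epithelial cells were present in all 3 libraries. A list of 20 epithelial markers had none at 0 in any library. It summed to 904 CPM in iCD8a and 523 in ILC1, against 2048 in CD11b+. Cdh1 (359 CPM), Cdh17 (193) and Epcam (154) were the highest of them in iCD8a, and Cdh17 was higher there than in both other libraries. Against CD11b+, 17 of the 20 were lower in iCD8a (20.6% of all genes) and 19 of the 20 in ILC1 (20.9% of all). The list's median log2 ratio was 0.11 for iCD8a over ILC1. Mixed cells and the sorted cells' own expression cannot be told apart in bulk RNA, nor can fewer cells of a type and less RNA per cell.

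Glycolysis splits glucose into pyruvate and yields ATP without oxygen. Hexokinases trap glucose as glucose-6-phosphate, phosphofructokinase 1 commits it, and the lower steps end in pyruvate kinase and lactate dehydrogenase. The pentose phosphate pathway branches off at glucose-6-phosphate: its oxidative arm makes NADPH and its non-oxidative arm exchanges sugar phosphates for ribose. Activated lymphocytes and inflammatory myeloid cells are known for high glycolytic flux, and phagocytes spend NADPH on the oxidative burst. Many of these genes are known targets of hypoxia-inducible factor HIF-1, which binds the core ACGTG, and of Myc, which with Max binds the E-box CACGTG.

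Promoters of 5 enzymes are shown as examples, and no result below rests on them. They are the 3 hexokinases, whose make-up differed between libraries, and Ldha and Pgk1, lower-glycolysis enzymes that were lower in iCD8a than in CD11b+. Each runs from 250 bases before to 50 bases after a RefSeq gene start (GRCm38.p6), 5′ to 3′ on the gene's own strand, and capitals mark ACGTG or its reverse complement CACGT.
Hk1, chr10:62340372-62340671, minus strand: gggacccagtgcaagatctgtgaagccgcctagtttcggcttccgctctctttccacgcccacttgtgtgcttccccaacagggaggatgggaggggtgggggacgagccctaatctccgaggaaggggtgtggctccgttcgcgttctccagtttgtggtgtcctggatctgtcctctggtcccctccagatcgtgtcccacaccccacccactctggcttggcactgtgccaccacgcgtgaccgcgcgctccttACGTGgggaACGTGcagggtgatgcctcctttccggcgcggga
Hk2, chr6:82774405-82774704, minus strand: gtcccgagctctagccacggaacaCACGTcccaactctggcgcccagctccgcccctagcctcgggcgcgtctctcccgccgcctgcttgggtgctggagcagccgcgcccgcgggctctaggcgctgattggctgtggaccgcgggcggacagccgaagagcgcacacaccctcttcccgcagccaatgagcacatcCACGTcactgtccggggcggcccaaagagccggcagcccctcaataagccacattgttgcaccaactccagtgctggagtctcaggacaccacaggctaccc
Hk3, chr13:55021336-55021635, minus strand: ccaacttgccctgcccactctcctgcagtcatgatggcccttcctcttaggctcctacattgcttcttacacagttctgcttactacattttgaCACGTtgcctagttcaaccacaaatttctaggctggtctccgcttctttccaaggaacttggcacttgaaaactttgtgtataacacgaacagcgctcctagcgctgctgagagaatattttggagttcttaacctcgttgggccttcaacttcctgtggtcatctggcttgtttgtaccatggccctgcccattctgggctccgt
Ldha, chr7:46845554-46845853, plus strand: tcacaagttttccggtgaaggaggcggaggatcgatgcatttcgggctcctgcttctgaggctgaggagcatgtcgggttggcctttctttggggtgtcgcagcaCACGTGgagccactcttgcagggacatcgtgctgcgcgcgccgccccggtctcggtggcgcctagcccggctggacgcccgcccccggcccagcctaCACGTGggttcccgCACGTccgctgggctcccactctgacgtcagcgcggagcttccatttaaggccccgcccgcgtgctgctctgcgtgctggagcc
Pgk1, chrX:106186850-106187149, plus strand: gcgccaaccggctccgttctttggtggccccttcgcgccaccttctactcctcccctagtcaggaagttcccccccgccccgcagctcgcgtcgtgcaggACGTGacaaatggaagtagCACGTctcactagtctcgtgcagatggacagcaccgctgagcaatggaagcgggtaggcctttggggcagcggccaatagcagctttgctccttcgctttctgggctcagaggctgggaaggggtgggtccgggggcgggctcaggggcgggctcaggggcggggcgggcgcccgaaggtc
The Ldha window held the letters at 3 places, 2 of them the full palindrome CACGTG, which contains ACGTG on both strands. Hk1, Hk2 and Pgk1 held 2 places each and Hk3 held 1. For Hk1 and Ldha the table lists another start, with 0 matches in its window. All 40 enzymes had at least 1 promoter in the table. ACGTG on either strand was present in 21 of their 61 windows (34.4%), against 19.6% of all 32851 windows of the same length, and CACGTG in 9.84% against 7.15%. By gene, 17 of the 40 enzymes held ACGTG, the 5 printed ones among them. Taldo1, Tkt, Pgd, Eno1 and Pfkfb4, also lower in iCD8a than in CD11b+, had 0 matches. The related core GCGTG, also read on both strands, was present in 49.2% of the enzymes' windows against 32.4% of all. These are descriptions of letters, not of bound sites.

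The 2 innate lymphoid libraries were close to each other for most of these enzymes, and most enzymes that stood apart were lower in the lymphoid libraries than in CD11b+. A gene was called apart between 2 libraries where it differed 2-fold or more, with the end of the interval nearer to no difference at 1.5 or beyond, and reached 5 CPM in whichever library was higher. With iCD8a set over ILC1, 0 of 31 tested enzymes were higher, where 9.49% of all tested genes were, and 3 were lower (Hk2, Hk3 and Pfkfb3), where 10.8% of all were. Of those 31 enzymes, 24 lay within 1.5-fold (77.4%), where 61.7% of all tested genes did. Their share called lower, 9.68%, was near that of all genes. Set over CD11b+, iCD8a had 20 of 35 enzymes lower (57.1%), against 20.6% of all genes, and only Hk1 higher, against 16.7% of all. ILC1 over CD11b+ gave 18 of 35 lower (51.4%), against 20.9% of all genes, and again only Hk1 higher, against 17.0% of all. The last 2 comparisons share the CD11b+ library and are not independent of each other. With CPM by gene totals and no TMM factor, iCD8a over ILC1 had 2 higher (Ldhb and Pgls) and 3 lower, and iCD8a over CD11b+ had 3 higher (Hk1, Bpgm and Pdk1) and 14 lower. The calls lost there were Gapdh, Ldhb, Pdk3, Pgd, Pgk1 and Pkm. Shares of all genes were not set beside the counts under that scaling.

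At 4-fold, with a near bound of 2, the calls thinned. iCD8a over ILC1 kept 0 higher (3.52% of all genes) and 2 lower, Hk2 and Hk3 (4.89% of all). Against CD11b+, iCD8a had 10 lower (13.4% of all) and 0 higher (6.13% of all), and ILC1 had 9 lower (13.0% of all) and 0 higher (6.01% of all). The median log2 ratio over the 37 enzymes with at least 1 CPM in any library was 0.13 for iCD8a over ILC1, where the median of all genes was 0.04. It was −1.09 for iCD8a over CD11b+ (all genes 0.04) and −1.12 for ILC1 over CD11b+ (all genes 0.003). Of the 37, 26 had a ratio below 1 in iCD8a over CD11b+, where 6590 of all 13649 genes did. In ILC1 over CD11b+, 27 of the 37 did, where 6807 of the 13649 did.

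**Figure D1:**
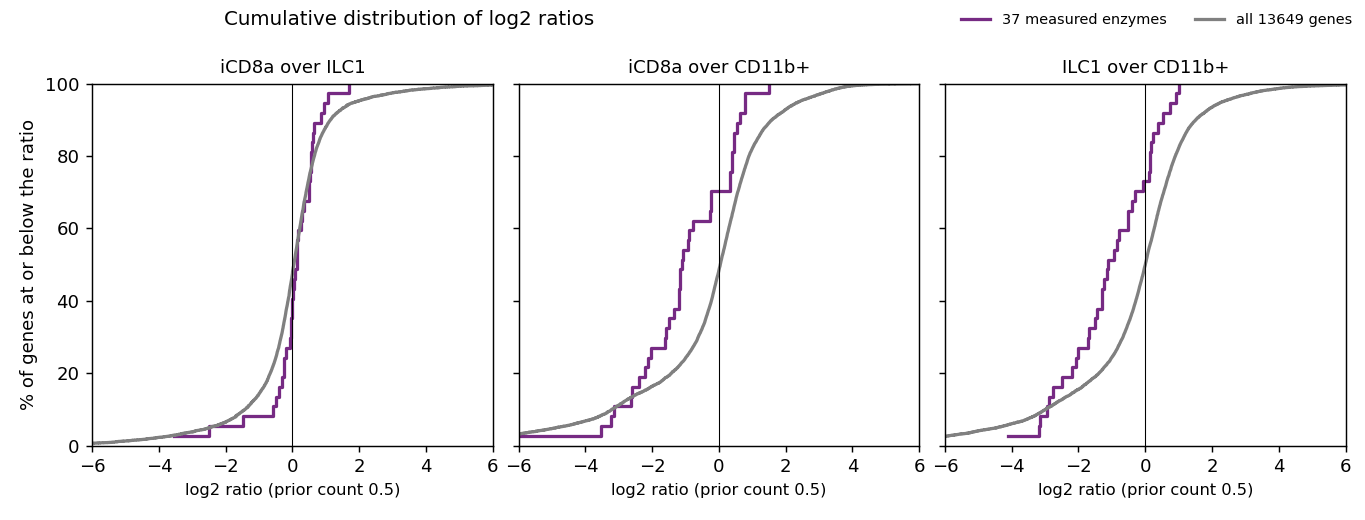
Cumulative percentage of genes (vertical axis) at or below each log2 ratio (horizontal axis, prior count 0.5) for the 37 measured enzymes and for the 13649 genes that reached 1 CPM somewhere. The enzyme curve runs near that of all genes for iCD8a over ILC1 and to its left for both comparisons with CD11b+, where the enzymes' medians are −1.09 and −1.12.

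As a share of all gene counts, the 40 enzymes together took 0.360% in iCD8a and 0.317% in ILC1, against 0.594% in CD11b+. The arms of the pathway did not contribute alike. Upper glycolysis took 0.148% in iCD8a and 0.137% in ILC1, against 0.163% in CD11b+, a near-level share. Lower glycolysis with lactate dehydrogenase took 0.112% in iCD8a and 0.106% in ILC1, against 0.225% in CD11b+. The flux regulators took 0.00814% in iCD8a and 0.00889% in ILC1, against 0.0206% in CD11b+. The non-oxidative pentose phosphate arm took 0.0556% in iCD8a and 0.0394% in ILC1, against 0.135% in CD11b+, while the oxidative arm took 0.0290%, 0.0188% and 0.0429% in the same order. With mitochondrially encoded genes left out of the totals, a choice made after seeing the data, the set took 0.366% in iCD8a and 0.323% in ILC1, against 0.657% in CD11b+.

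**Figure D2:**
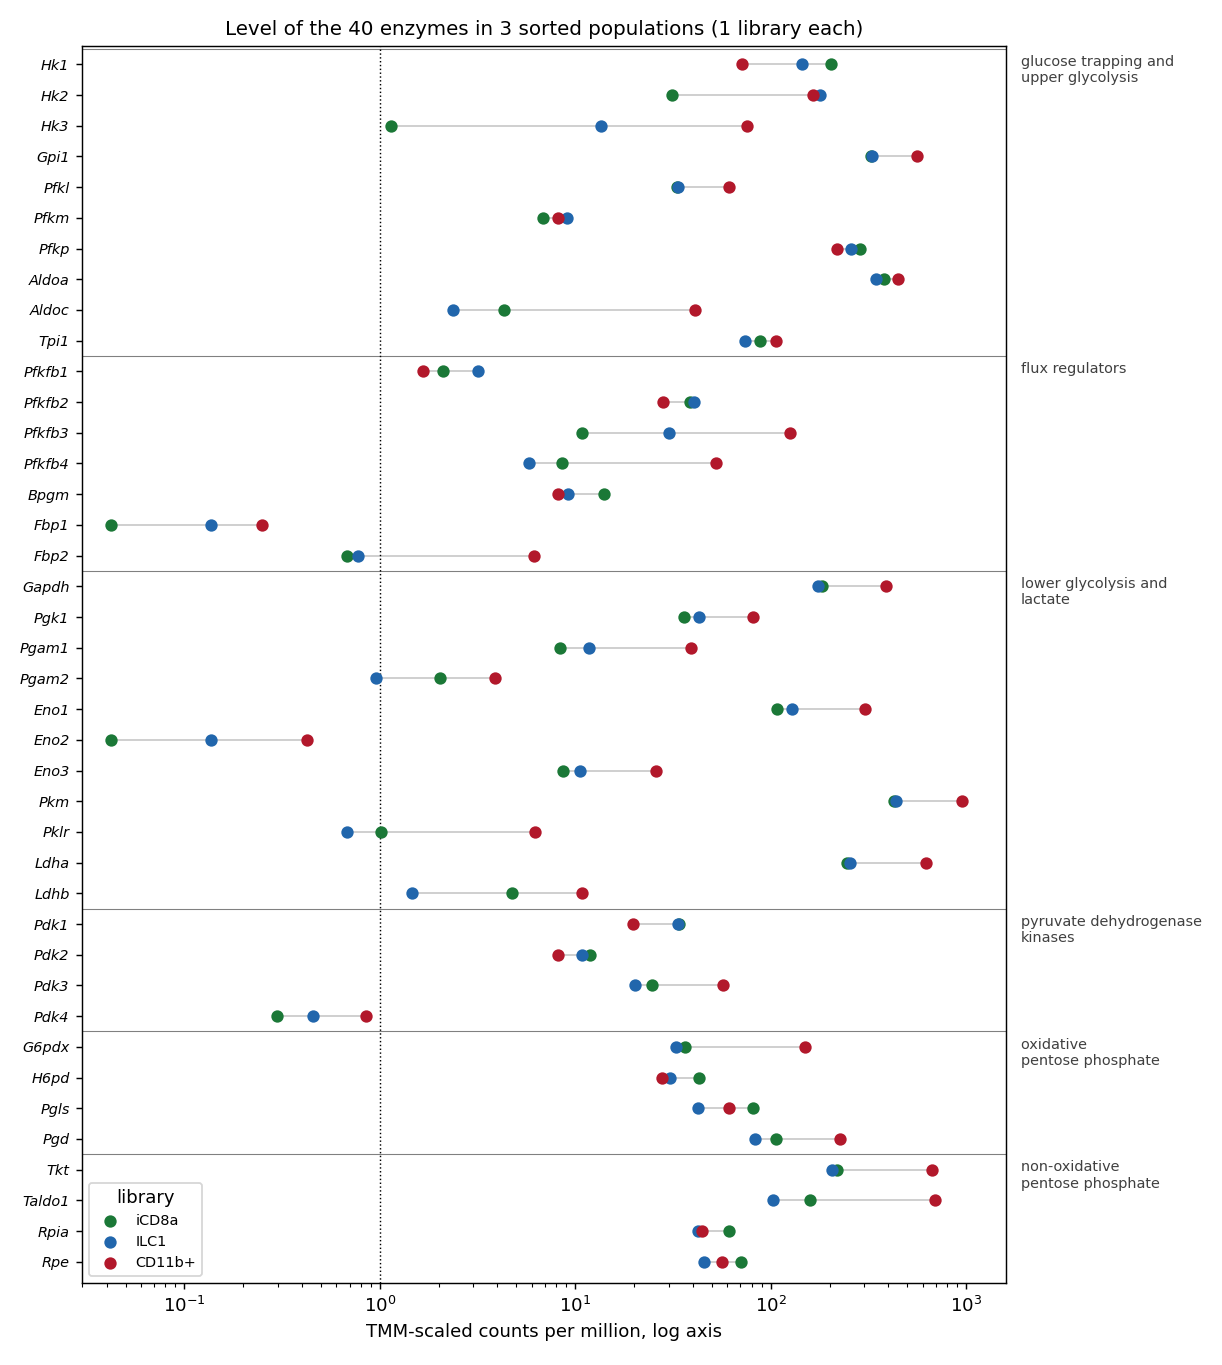
Level of each of the 40 enzymes in TMM-scaled CPM (horizontal log axis) in the iCD8a, ILC1 and CD11b+ libraries, grouped by role. The dotted line marks 1 CPM, and the 3 enzymes left of it in every library are Eno2, Fbp1 and Pdk4. The points of most lower-glycolysis enzymes stand furthest right in CD11b+.

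Among the hexokinases the 3 populations differed in which isozyme they held. Hk1 (ENSMUSG00000037012), the broadly expressed isozyme that docks on mitochondria, stood at 202.5 CPM in iCD8a and 144.5 in ILC1, against 71.5 in CD11b+. It was the only enzyme of the set called higher in a lymphoid library, 2.83-fold in iCD8a over CD11b+ (2.69 to 2.99) and 2.02-fold in ILC1 over CD11b+ (1.91 to 2.14), which is only just past the 2-fold line. Hk2 (ENSMUSG00000000628), the inducible isozyme of muscle and activated cells, stood at 31.3 CPM in iCD8a and 178 in ILC1, against 164 in CD11b+. Its level in iCD8a was 5.69-fold lower than in ILC1 (5.26 to 6.17) and 5.24-fold lower than in CD11b+ (4.85 to 5.67), and ILC1 and CD11b+ lay within 1.09-fold of each other. Hk3 (ENSMUSG00000025877), the isozyme known from myeloid cells, stood at 1.14 CPM in iCD8a and 13.5 in ILC1, against 75.9 in CD11b+. That was 11.8-fold lower in iCD8a than in ILC1 (7.96 to 18.2) and 66.4-fold lower than in CD11b+ (45.5 to 101), and 5.62-fold lower in ILC1 than in CD11b+ (4.98 to 6.37). Hk3 overlaps Unc5a on the other strand, which had 18.8 CPM in iCD8a and 20.5 in ILC1, against 2.23 in CD11b+, an order unlike that of Hk3. A list of 10 myeloid markers, none at 0, summed to 3774 CPM in iCD8a and 2452 in ILC1, against 37074 in CD11b+. Tyrobp (1102 CPM), Fcer1g (870) and Itgax (722) were the highest of them in iCD8a. Set over ILC1, iCD8a had 5 of the 10 higher (Cd74, H2-Ab1, Cybb, Fcer1g and Tyrobp), where 9.49% of all genes were. It had 3 lower (Lyz2, Csf1r and Cd14), where 10.8% of all were. Lyz2 had 6.52 CPM in iCD8a and 252 in ILC1, and Cd14 had 1.40 and 38.2. The part of myeloid transcripts in the Hk3 levels was not tested.

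Per exon length, which allows levels of different genes to be compared, Hk1 made up 81.0% of hexokinase transcripts in iCD8a (79.8 to 82.2, exact binomial interval). Hk2 made up 17.9% and Hk3 1.06% there. In ILC1, Hk2 held 59.2% (58.1 to 60.3), Hk1 33.5% and Hk3 7.26%. In CD11b+, Hk2 held 48.7% (47.6 to 49.7), Hk3 36.5% and Hk1 14.8%. Which of Hk1 and Hk2 led in ILC1 depended on the length used: over the longest annotated transcript Hk1 held 48.0% and Hk2 46.0%, and over the coding length Hk1 held 42.2% and Hk2 53.7%. In CD11b+, Hk1 held 22.5% and Hk3 24.4% by coding length, and 23.9% and 33.6% by the longest transcript. By coding length Hk3 held 0.496% in iCD8a and 4.04% in ILC1. In iCD8a, Hk1 led by every length, with 85.8% by coding length and 88.7% by the longest transcript, and Hk2 held 10.6% by the longest transcript. The shares leave out Hkdc1, a further hexokinase gene, which had 2.50 CPM in iCD8a and 3.23 in ILC1, against 21.9 in CD11b+. Hexokinase transcripts summed to 29.3 CPM per kb in iCD8a and 50.5 in ILC1, against 56.5 in CD11b+.

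**Figure D3:**
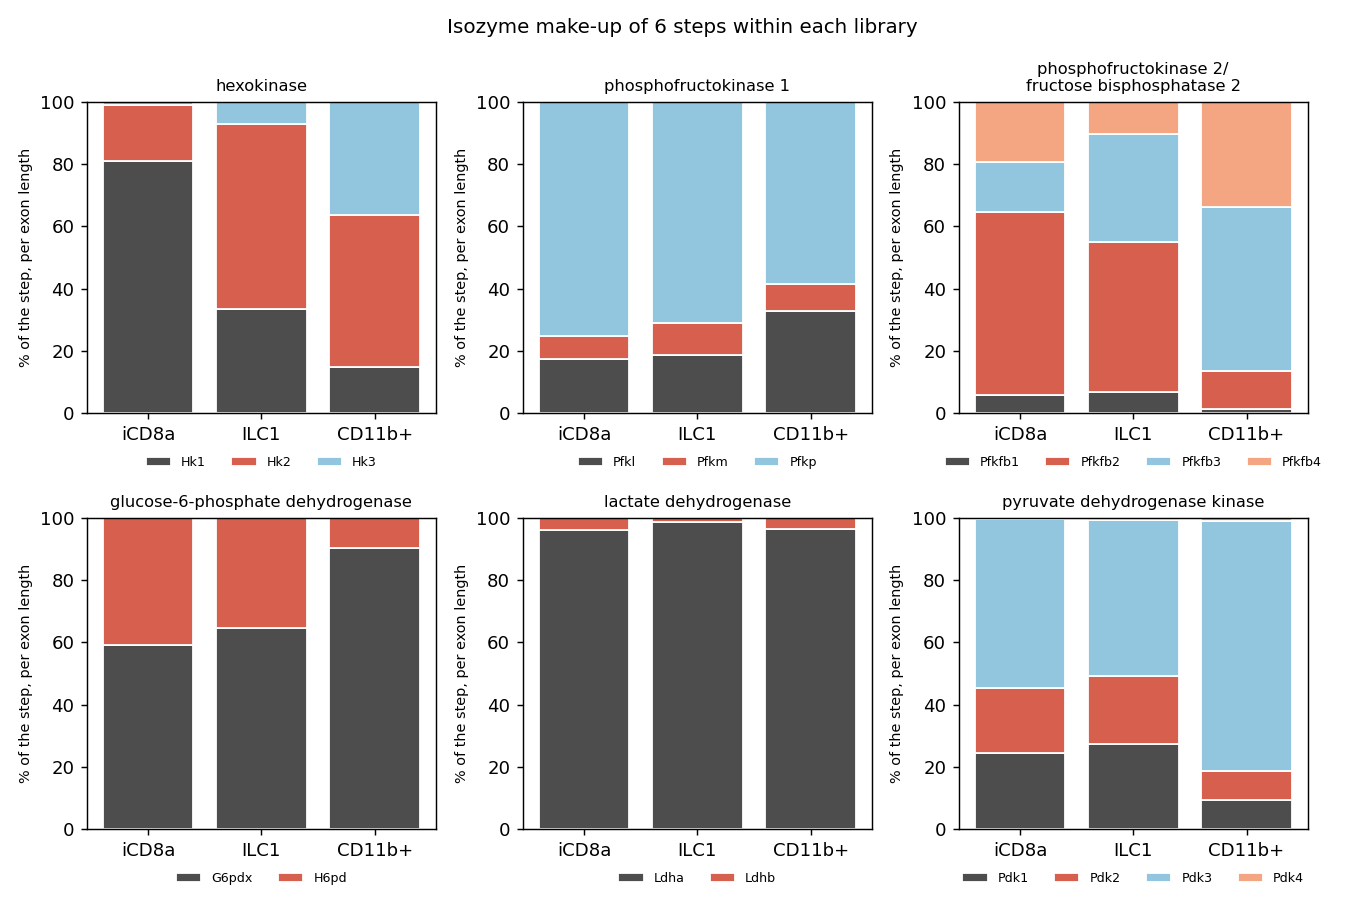
Share of each isozyme in the transcripts of 6 enzyme steps, per exon length (vertical axis, percent of the step), in the iCD8a, ILC1 and CD11b+ libraries. Hk1 fills 81.0% of the hexokinase bar in iCD8a, Hk3 36.5% of it in CD11b+, and Pfkfb2 58.9% of its step in iCD8a but 12.2% in CD11b+.

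Between hexokinase and the trioses the main enzymes gave no call. Gpi1, which turns glucose-6-phosphate into fructose-6-phosphate, stood at 326 CPM in iCD8a and 329 in ILC1, against 562 in CD11b+, 1.73-fold lower in iCD8a than in CD11b+ (1.68 to 1.77). Pfkp, the platelet-type subunit of phosphofructokinase 1, had 285 CPM in iCD8a and 256 in ILC1, against 219 in CD11b+. It made up most of the phosphofructokinase transcripts per exon length, 75.2% in iCD8a and 71.1% in ILC1, against 58.6% in CD11b+. Pfkl, the liver-type subunit, had 33.0 CPM in iCD8a and 33.6 in ILC1, against 60.9 in CD11b+. Its share was 17.5% in iCD8a and 18.7% in ILC1, against 32.7% in CD11b+, and by coding length 10.2% in iCD8a and 11.3% in ILC1, against 21.2% in CD11b+. Pfkm, the muscle-type subunit, had 6.86 CPM in iCD8a and 9.09 in ILC1, against 8.15 in CD11b+. Summed per exon length, phosphofructokinase 1 came to 28.3 CPM per kb in iCD8a and 26.9 in ILC1, against 27.9 in CD11b+. Aldoa, the main aldolase, had 379 CPM in iCD8a and 345 in ILC1, against 450 in CD11b+. Tpi1, which interconverts the 2 triose phosphates, had 88.6 CPM in iCD8a and 74.3 in ILC1, against 106 in CD11b+.

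The bifunctional PFKFB enzymes make and remove fructose-2,6-bisphosphate, the strongest activator of phosphofructokinase 1, and here the libraries split sharply. Pfkfb3 (ENSMUSG00000026773), the isozyme with the highest kinase activity, had 10.8 CPM in iCD8a and 30.2 in ILC1, against 126 in CD11b+. Its level was 2.79-fold lower in iCD8a than in ILC1 (2.41 to 3.23), 11.6-fold lower in iCD8a than in CD11b+ (10.2 to 13.2) and 4.17-fold lower in ILC1 than in CD11b+ (3.84 to 4.54). Pfkfb4, a hypoxia-induced isozyme, had 8.51 CPM in iCD8a and 5.82 in ILC1, against 52.4 in CD11b+, 6.16-fold and 9.01-fold lower in the lymphoid libraries. Pfkfb2, the heart isozyme, ran the other way without a call, at 38.5 CPM in iCD8a and 40.3 in ILC1, against 28.1 in CD11b+. Per exon length Pfkfb2 was the leading PFKFB transcript in iCD8a (58.9%) and ILC1 (48.2%) and held 12.2% in CD11b+, where Pfkfb3 held 52.5% and Pfkfb4 33.9%. Pfkfb1, the liver isozyme, lay between 1.67 and 3.18 CPM. Bpgm, which makes 2,3-bisphosphoglycerate, had 14.0 CPM in iCD8a and 9.22 in ILC1, against 8.15 in CD11b+, and was not called.

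Lower glycolysis was the most uniform of the 6 roles against CD11b+. Of 9 tested enzymes 9 were lower in iCD8a than in CD11b+ (20.6% of all genes) and 8 were lower in ILC1 (20.9% of all). In ILC1, Pgk1 missed the 2-fold line at 1.897. Between iCD8a and ILC1, 0 of 7 tested were apart, where 9.49% of all genes were higher and 10.8% lower. Pkm (ENSMUSG00000032294), pyruvate kinase of most adult tissues, had 428 CPM in iCD8a and 439 in ILC1, against 954 in CD11b+. It was 2.23-fold lower in iCD8a (2.18 to 2.28) and 2.17-fold lower in ILC1 (2.12 to 2.23) than in CD11b+. Ldha (ENSMUSG00000063229), which reduces pyruvate to lactate, had 245 CPM in iCD8a and 254 in ILC1, against 624 in CD11b+, 2.55-fold lower in iCD8a (2.48 to 2.63) and 2.46-fold lower in ILC1 (2.38 to 2.53). The size of the difference was thus similar at these 2 steps. Eno1, the main enolase, had 108 CPM in iCD8a and 129 in ILC1, against 304 in CD11b+, 2.81-fold and 2.36-fold lower in the lymphoid libraries. Gapdh, which makes the NADH that lactate dehydrogenase consumes, had 183 CPM in iCD8a and 175 in ILC1, against 389 in CD11b+ (2.12-fold and 2.21-fold lower). Pgk1, the ATP-forming phosphoglycerate kinase whose promoter is printed above, had 36.0 CPM in iCD8a and 42.8 in ILC1, against 81.1 in CD11b+, 2.25-fold lower in iCD8a (2.08 to 2.44). Pgam1, the mutase that follows it, had 8.38 CPM in iCD8a and 11.8 in ILC1, against 39.2 in CD11b+, 4.67-fold (4.01 to 5.47) and 3.31-fold lower (2.89 to 3.81).

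Several of these levels are limited by copies of the genes elsewhere in the genome. The share of 50-base windows of the coding transcript that also occur in another annotated gene was 82.5% for Gapdh, 72.2% for Eno1, 68.0% for Pgk1, 41.5% for Pgam1, 30.5% for Pkm, 27.0% for Ldhb and 16.6% for Ldha. Gapdh had 196 near-identical pseudogene copies, and counts assigned to those copies came to 5.74% of its own in iCD8a and 5.41% in ILC1, against 4.56% in CD11b+. Reads that fit several places were not counted, so the levels of these enzymes are uncertain. This limit was least for enzymes whose transcripts shared 0% of windows, among them Hk1, Hk2, Hk3, Tkt and Pgd. Hk3 has other limits, the overlap with Unc5a and a count of only 27 in iCD8a.

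The minor isozymes of the lower steps were low but followed the same order against CD11b+. Eno3, the muscle enolase, had 8.63 CPM in iCD8a and 10.6 in ILC1, against 26.0 in CD11b+. Its share of enolase transcripts per exon length was level, at 19.8% in iCD8a and 20.4% in ILC1, against 20.9% in CD11b+, and by coding length at 7.41% in iCD8a and 7.63% in ILC1, against 7.87% in CD11b+. Ldhb, the heart-type lactate dehydrogenase that favours pyruvate formation, had 4.74 CPM in iCD8a and 1.45 in ILC1, against 10.8 in CD11b+. It was 2.28-fold lower in iCD8a (1.83 to 2.86) and 7.43-fold lower in ILC1 (5.16 to 11.1) than in CD11b+. In iCD8a it was 3.26-fold above ILC1 (2.18 to 4.99), but at less than 5 CPM in both it was outside the tested genes. Ldha made up 96.1% of lactate dehydrogenase transcripts per exon length in iCD8a and 98.8% in ILC1, against 96.5% in CD11b+. Pgam2, the muscle mutase, stood at 2.03 CPM in iCD8a and 0.954 in ILC1, against 3.90 in CD11b+, under the level tested. Eno2, the neuronal enolase, had 1 count in iCD8a and 3 in ILC1, against 12 in CD11b+.

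A small group of tissue-restricted isozymes was higher in CD11b+ at low levels. Pklr, pyruvate kinase of liver and red cells, had 1.02 CPM in iCD8a and 0.682 in ILC1, against 6.24 in CD11b+, 6.14-fold (4 to 9.84) and 9.15-fold lower (5.40 to 16.7). Fbp2, the muscle fructose bisphosphatase, had 0.677 CPM in iCD8a and 0.773 in ILC1, against 6.13 in CD11b+, 9.06-fold and 7.94-fold lower. Aldoc, the brain aldolase, had 4.32 CPM in iCD8a and 2.36 in ILC1, against 40.9 in CD11b+, 9.48-fold (7.74 to 11.7) and 17.3-fold lower (13.1 to 23.3). Markers of gut epithelium had a median log2 ratio of −3.04 in iCD8a over CD11b+ (quartiles −3.26 and −2.74) and −3.14 in ILC1 over CD11b+. The fructokinase gene Khk, not one of the 40, had 25.3 CPM in iCD8a and 13.7 in ILC1, against 83.05 in CD11b+. The part of epithelial transcripts in the levels of Pklr, Fbp2 and Aldoc was not tested. Markers of other tissues were detected too, and their part was not tested either, nor were brain markers listed. The 5 erythroid genes summed to 0.635 CPM in iCD8a and 0.454 in ILC1, against 2.55 in CD11b+, 4 muscle genes to 6.86, 2.77 and 6.63 CPM, and 3 hepatocyte genes to 4.27, 2.95 and 27.1 CPM. The 8 neutrophil genes summed to 4.36 CPM in iCD8a and 6.50 in ILC1, against 147 in CD11b+, of which Csf3r alone gave 0.846 in iCD8a and 4.36 in ILC1, against 130 in CD11b+, with Elane at 0 in each. Fbp1, the liver fructose bisphosphatase, had 1 count in iCD8a and 3 in ILC1, against 7 in CD11b+.

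**Figure D4:**
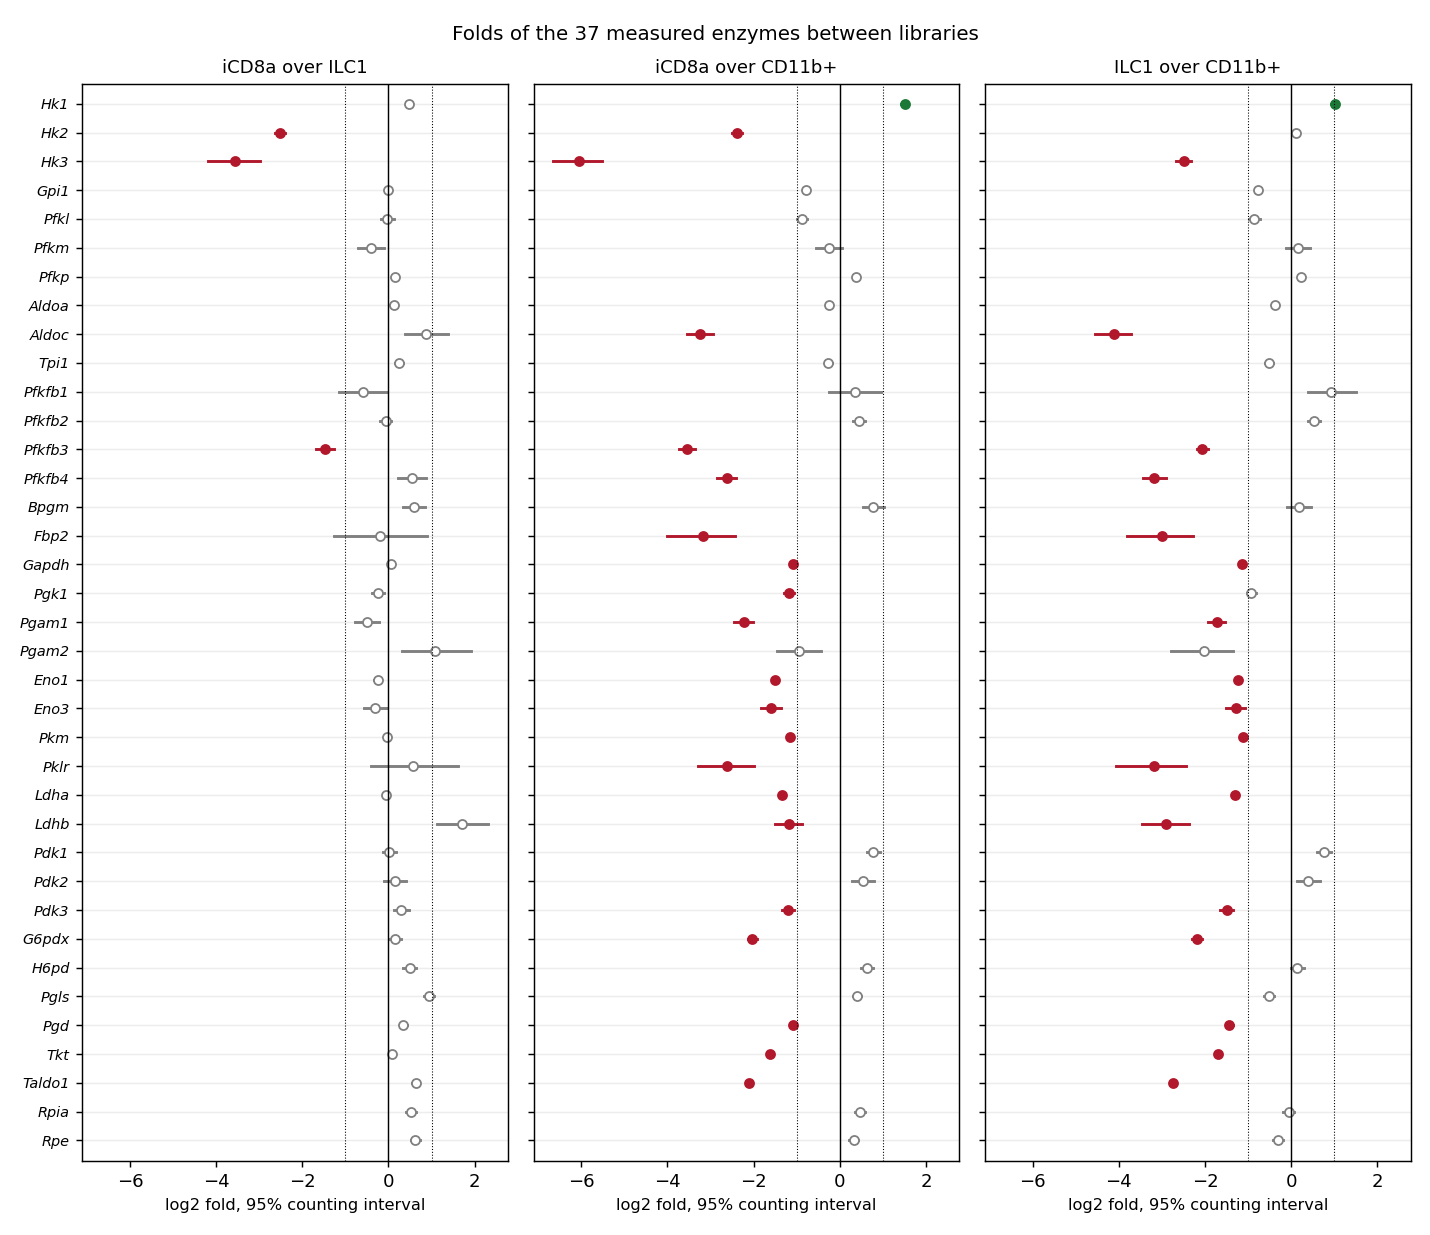
Log2 fold (horizontal axis) of each of the 37 measured enzymes for iCD8a over ILC1, iCD8a over CD11b+ and ILC1 over CD11b+, with 95% counting intervals as bars. Filled points were called at 2-fold, in green where higher and in red where lower, and dotted lines mark 2-fold. Between iCD8a and ILC1 only Hk2, Hk3 and Pfkfb3 are filled, and the green point in both comparisons with CD11b+ is Hk1.

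The pyruvate dehydrogenase kinases switch off entry of pyruvate into the mitochondrial acetyl-CoA pool, and their isozymes did not move together. Pdk3 had 24.8 CPM in iCD8a and 20.2 in ILC1, against 56.9 in CD11b+, 2.29-fold (2.08 to 2.52) and 2.82-fold lower (2.54 to 3.14). Pdk1, the isozyme best known as a HIF-1 target, was not called, at 34.02 CPM in iCD8a and 33.5 in ILC1, against 19.9 in CD11b+, a fold of 1.71 in iCD8a (1.54 to 1.91) and 1.69 in ILC1 (1.51 to 1.89). Pdk2 had 11.9, 10.8 and 8.19 CPM in the same order of libraries. Pdk3 made up 54.1% of kinase transcripts per exon length in iCD8a and 50.1% in ILC1, against 80.5% in CD11b+. By coding length the order changed in the lymphoid libraries: Pdk3 held 35.6% in iCD8a and 31.7% in ILC1, against 66.9% in CD11b+, and Pdk1 held 46.6% in iCD8a and 50.4% in ILC1, against 22.3% in CD11b+. Pdk4, the starvation-induced isozyme, was below 1 CPM everywhere, with 7 counts in iCD8a and 10 in ILC1, against 24 in CD11b+.

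In the oxidative arm of the pentose phosphate pathway, the 2 NADPH-forming cytosolic dehydrogenases were both lower in the lymphoid libraries than in CD11b+. G6pdx (ENSMUSG00000031400), the gatekeeper enzyme, had 36.5 CPM in iCD8a and 32.9 in ILC1, against 149 in CD11b+, 4.10-fold lower in iCD8a (3.81 to 4.41) and 4.54-fold lower in ILC1 (4.20 to 4.92). Pgd, which forms the second NADPH and ribulose-5-phosphate, had 106 CPM in iCD8a and 83.3 in ILC1, against 226 in CD11b+, 2.13-fold (2.03 to 2.23) and 2.71-fold lower (2.57 to 2.85). The lactonase gene and the endoplasmic reticulum form of the dehydrogenase did not share that order. Pgls, the lactonase between the 2 dehydrogenases, was highest in iCD8a, at 81.3 CPM, with 42.5 in ILC1 and 61.3 in CD11b+. Its fold of 1.91 in iCD8a over ILC1 (1.77 to 2.07) fell short of the 2-fold line, and its neighbour Fam129c, which overlaps it on the same strand, was also highest in iCD8a at 18.2 CPM, with 2.50 in ILC1 and 4.61 in CD11b+. H6pd, which feeds NADPH inside the endoplasmic reticulum, had 42.7 CPM in iCD8a and 30.4 in ILC1, against 27.7 in CD11b+. Per exon length G6pdx made up 59.2% of glucose-6-phosphate dehydrogenase transcripts in iCD8a (57.0 to 61.4) and 64.8% in ILC1 (62.3 to 67.1), against 90.2% in CD11b+ (89.5 to 90.9).

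In the non-oxidative arm, transaldolase and transketolase were lower in the lymphoid libraries and the 2 enzymes on the way to ribose were not called. Per exon length transaldolase had 73.5 CPM per kb in iCD8a and 47.5 in ILC1, against 319 in CD11b+. Taldo1 (ENSMUSG00000025503), transaldolase, had 160 CPM in iCD8a and 103 in ILC1, against 693 in CD11b+, 4.34-fold lower in iCD8a (4.19 to 4.50) and 6.73-fold lower in ILC1 (6.44 to 7.03). Ranked per exon length among protein-coding genes, it stood at place 510 in iCD8a and 962 in ILC1, against 109 in CD11b+. In that ranking Aldoa stood at place 236 in iCD8a and 357 in ILC1, against 293 in CD11b+, and so held nearly level. Tkt, transketolase, had 218 CPM in iCD8a and 206 in ILC1, against 666 in CD11b+, 3.05-fold (2.96 to 3.15) and 3.23-fold lower (3.13 to 3.34). Rpia, ribose-5-phosphate isomerase, had 61.5 CPM in iCD8a and 42.7 in ILC1, against 44.5 in CD11b+, and Rpe, the epimerase, had 70.5, 45.6 and 56.4 CPM in the same order. All 4 oxidative and all 4 non-oxidative enzymes were above 1 in iCD8a over ILC1 under every scaling tried. With TMM scaling, so were 22 of the 37 measured enzymes and 7113 of all 13649 genes. Folds of the 8 then ran from 1.06 for Tkt to 1.91 for Pgls. Under TMM scaling 0 of these 8 were called, and without it Pgls was.

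Genes that carry glucose and lactate across membranes were read from a list of 14, chosen for their function. Of 10 tested, 1 was higher and 3 were lower in iCD8a than in ILC1, where 9.49% of all genes were higher and 10.8% lower. Against CD11b+, iCD8a had 1 higher and 6 lower of 12 (16.7% and 20.6% of all genes), and ILC1 had 1 higher and 4 lower of 12 (17.0% and 20.9% of all). The list's median log2 ratio was 0.09 for iCD8a over ILC1, −1.19 with iCD8a over CD11b+ and −0.70 with ILC1 over CD11b+. Slc2a1, the basal glucose transporter GLUT1, had 34.3 CPM in iCD8a and 82.5 in ILC1, against 162 in CD11b+, and like Hk2 was lowest in iCD8a. Slc2a6, a lysosomal glucose transporter, had 13.0 CPM in iCD8a and 213 in ILC1, against 225 in CD11b+, 16.4-fold lower in iCD8a than in ILC1. Slc2a3 (GLUT3) was not called, with 71.6 CPM in iCD8a and 105 in ILC1, against 101 in CD11b+. The lactate exporter Slc16a3 (MCT4) had 31.3 CPM in iCD8a and 17.8 in ILC1, against 355 in CD11b+, 11.4-fold and 20-fold lower. Slc16a1 (MCT1) instead peaked in ILC1, with 6.98 CPM in iCD8a and 31.4 in ILC1, against 12.2 in CD11b+. Their chaperone Bsg was near level, from 121 to 164 CPM.

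Genes of NADPH use and glutathione were read from a list of 20. The list also holds enzymes that make NADPH, such as Idh2, so its counts do not describe NADPH use alone. Of 18 tested, 0 were higher and 6 lower in iCD8a than in CD11b+, where 16.7% of all genes were higher and 20.6% lower. In ILC1, 0 were higher and 11 lower than in CD11b+ (17.0% and 20.9% of all). Set over ILC1, iCD8a had 4 higher (Cybb, Gclm, Idh2 and Mthfd2) and 1 lower (Ncf4), against 9.49% and 10.8% of all. The median log2 ratios were −0.81, −1.67 and 0.59 in those 3 comparisons. Cybb, the catalytic subunit of the phagocyte NADPH oxidase, had 129 CPM in iCD8a and 24.1 in ILC1, against 988 in CD11b+. Ncf1, its organizing subunit, had 603 CPM in iCD8a and 359 in ILC1, against 1141 in CD11b+. Cybb and Ncf1 were thus lowest in ILC1, though only Cybb was called between iCD8a and ILC1. The subunit gene Ncf4 was instead lowest in iCD8a, at 34.1 CPM, with 71.1 in ILC1 and 245 in CD11b+. Gpx1, which spends glutathione on peroxide, had 70.2 CPM in iCD8a and 46.8 in ILC1, against 609 in CD11b+. The same held for Gsr, glutathione reductase, at 54.9 CPM in iCD8a and 29.7 in ILC1, against 367 in CD11b+.

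Regulators of the pathway gave counts near those of all genes in the comparisons with CD11b+. Of 26 tested, 1 was higher and 5 were lower in iCD8a than in ILC1 (9.49% and 10.8% of all genes), and of 25 tested, 4 were higher and 6 lower in iCD8a than in CD11b+ (16.7% and 20.6% of all). ILC1 had 5 higher and 5 lower of 26 against CD11b+ (17.0% and 20.9% of all). Their median log2 ratios were −0.17, −0.37 and −0.07 in the same order. Hif1a, the oxygen-regulated subunit of HIF-1, had 89.2 CPM in iCD8a and 243 in ILC1, against 360 in CD11b+. Epas1, its HIF-2 relative, had 7.66 CPM in iCD8a and 232 in ILC1, against 6.88 in CD11b+, and Myc had 13.0, 272 and 17.6 CPM in the same order. Enzymes known as targets of these factors were set between iCD8a and ILC1 in different ways: Hk2 was 5.69-fold and Pfkfb3 2.79-fold lower in iCD8a, while Ldha, Pkm and Pgk1 were not called, at 1.04-fold, 1.02-fold and 1.19-fold lower. Mlxip, the glucose-sensing factor MondoA, had 296 CPM in iCD8a and 584 in ILC1, against 143 in CD11b+, and its target Txnip, which restrains glucose uptake, had 397, 534 and 631 CPM in the same order. Nfe2l2, the factor NRF2 that induces pentose phosphate enzymes, had 80.5 CPM in iCD8a and 129 in ILC1, against 414 in CD11b+. Stk11, the kinase LKB1 upstream of AMPK, had 267 CPM in iCD8a and 378 in ILC1, against 226 in CD11b+. Of 20 hypoxia-response genes outside glycolysis, 3 of 16 tested were higher and 6 lower in iCD8a than in ILC1, where 9.49% of all genes were higher and 10.8% lower. Against CD11b+, 1 of 15 was higher and 6 lower in iCD8a (16.7% and 20.6% of all), and 3 of 16 were higher and 2 lower in ILC1 (17.0% and 20.9% of all). The 3 medians were −0.20, −0.77 and −0.09. Vegfa, the angiogenic factor, led them with 56.8 CPM in iCD8a and 997 in ILC1, against 286 in CD11b+. Kdm3a, a histone demethylase, had 75.5 CPM in iCD8a and 117 in ILC1, against 59.4 in CD11b+, and Bnip3l, a mitophagy receptor, had 114, 105.5 and 67.7 CPM in the same order.

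**Figure D5:**
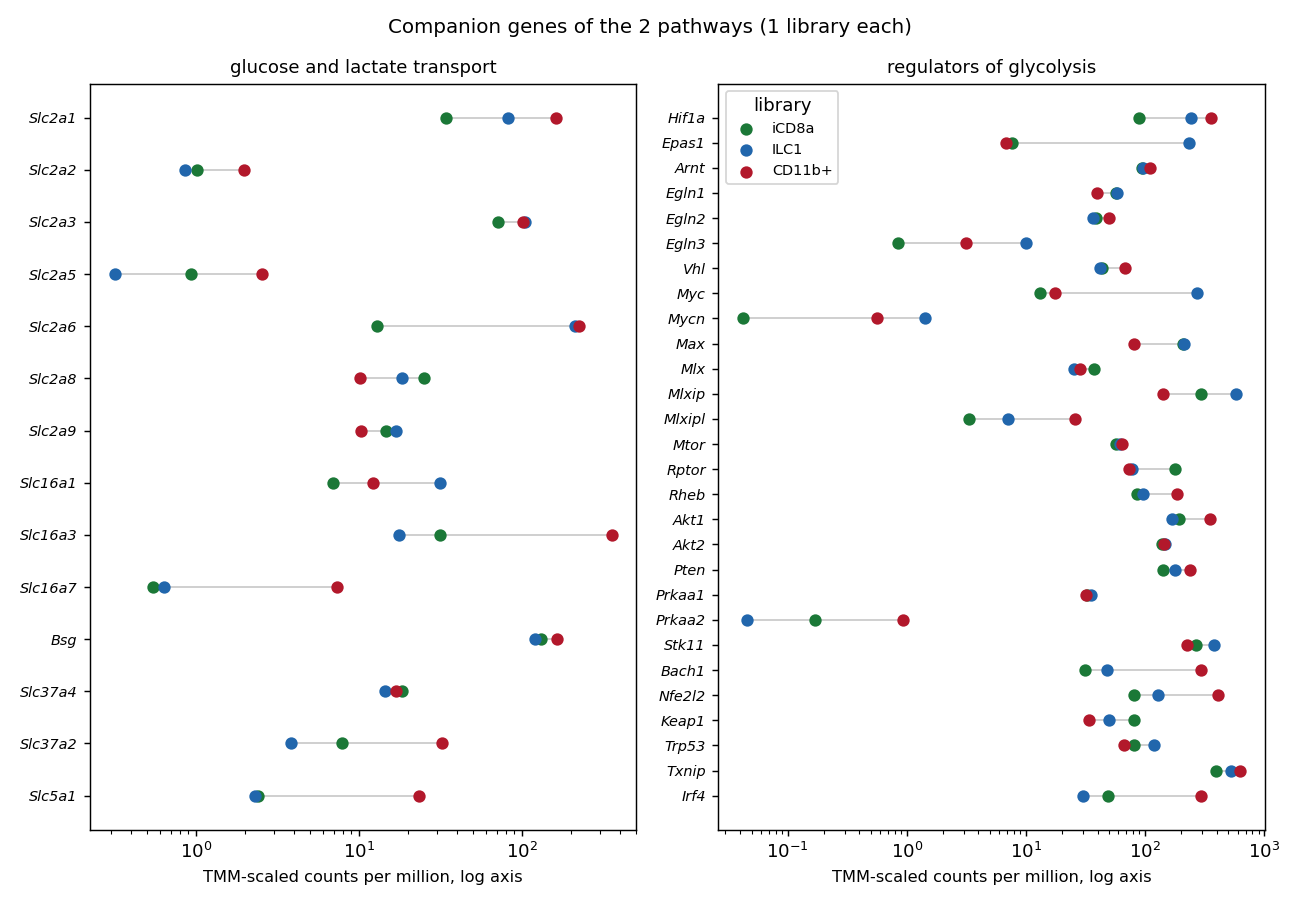
Level in TMM-scaled CPM (horizontal log axis) of 14 glucose and lactate transport genes and of 28 regulators of glycolysis in the iCD8a, ILC1 and CD11b+ libraries. Slc2a6 stands apart in iCD8a at 13.0 CPM, Slc16a3 stands far to the right in CD11b+ at 355 CPM, and Myc and Epas1 stand far to the right in ILC1 at 272 and 232 CPM.

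Steps past pyruvate were read from 11 genes. Of these genes for mitochondrial pyruvate import, pyruvate dehydrogenase and its phosphatases, with pyruvate carboxylase, 0 of 10 tested were apart between iCD8a and ILC1, where 9.49% of all genes were higher and 10.8% lower. Against CD11b+, iCD8a had 1 higher and 1 lower of 11 (16.7% and 20.6% of all), and ILC1 had 2 higher and 2 lower of 11, near the 17.0% and 20.9% of all genes. The median log2 ratios were 0.007 for iCD8a over ILC1, −0.235 with iCD8a over CD11b+ and −0.15 with ILC1 over CD11b+. Pdha1, of the catalytic component of pyruvate dehydrogenase, had 89.2 CPM in iCD8a and 103.5 in ILC1, against 112 in CD11b+, and its partner Pdhb had 75.3, 74.98 and 88.65 CPM in the same order. Mpc2, a subunit of the pyruvate carrier, had 17.0 CPM in iCD8a and 15.7 in ILC1, against 34.8 in CD11b+. Of the other isozymes, gluconeogenic enzymes and side branches, 17 of 25 listed were measured, 0 of 12 tested were apart between iCD8a and ILC1, and 5 of 15 tested were lower in each lymphoid library than in CD11b+ (20.6% of all genes for iCD8a and 20.9% for ILC1), among them Hkdc1, Khk, Galm and Ldhc. The list's medians were 0.10, −0.17 and −0.33 in the same order of comparisons. Galm, a sugar mutarotase, had 0.254 CPM in iCD8a and 0.9997 in ILC1, against 24.4 in CD11b+. Pck2, the mitochondrial gluconeogenic enzyme, was level, from 14.5 to 14.9 CPM.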

How the data were processed

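RNA-seq of 3 libraries, 1 per population, was analysed, grouped by the labels' cell type; no batch could be told from the labels. The deposited counts are raw reads per Ensembl gene, made by the authors with TopHat and HTSeq, per the labels and the series' design text (CASAVA 1.9 and TopHat2 in the submitters' processing notes). The sources used here give no build, annotation, read length or strand setting. Gene coordinates are therefore not printed, and reads of a gene cannot be separated from those of an antisense or overlapping one.

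The 5 rows that name no gene were left out. Non-unique alignments came to 26.9% of all counts for iCD8a and 34.5% for ILC1, against 30.5% for CD11b+. Reads in no gene were 9.31%, 11.0% and 8.56%, and ambiguous reads 1.08%, 0.889% and 0.922%. Symbols, exon lengths and overlaps came from GENCODE by Ensembl ID (35449 of 37224 matched; the listed gene Rpel1 was not found).

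TMM factors (edgeR 4.0.16, R 4.3.3) of 1.09 for iCD8a and 0.992 for ILC1, against 0.925 for CD11b+, scaled the counts to CPM. Folds are CPM ratios with exact conditional binomial (Clopper-Pearson) intervals at 95%. Intervals cover counting error only, since reads are not independent molecules. List medians used a prior count of 0.5 and genes of at least 1 CPM. With 1 library per group no test across genes could be run, and DESeq2 1.42.0 gave size factors only. Isozyme shares divide by the union of exons. Near-identical copies were found with BLAST 2.17.0 (90% identity over 200 bases). Python 3.11.15, numpy 2.4.6, pandas 2.3.3, scipy 1.17.1 and matplotlib 3.10.9 did the rest, tested on simulated counts.

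The enzymes and lists were chosen with earlier results of these data known. The rule named all enzymes and up to 4 genes of highest CPM per companion list; genes outside it were chosen after their values were seen. A few named by that rule are left out of the text. Alternatives covered scaling, minimum level, fold rule, gene length, thinning and near-identical copies.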

Additional observations from a re-analysis of the deposited data

How the results depend on the processing

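With 1 library per group no replicate could be left out. No paired analysis was possible because each group has 1 library. Scaling by gene totals without TMM factors moved the median log2 ratio of all genes by 0.136 (iCD8a over ILC1), 0.237 (iCD8a over CD11b+) and 0.101 (ILC1 over CD11b+), and the enzymes' medians became 0.27, −0.85 and −1.02. Under it, 2 enzymes were higher in iCD8a than in ILC1 (Ldhb and Pgls) and 3 higher in iCD8a than in CD11b+ (Bpgm and Pdk1 joined Hk1), and 14 in place of 20 were lower in iCD8a than in CD11b+. For ILC1 over CD11b+ the median was −1.04 with upper-quartile factors, −1.06 over protein-coding genes only and −1.02 over all enzymes with a count. Enzymes higher in iCD8a than in ILC1, 0 in the text, numbered 1 (Ldhb) with the 50 most abundant genes of each library removed, with a minimum of 1 CPM and with no minimum, and 4 at 1.5-fold (Bpgm, Pgls, Rpe and Taldo1). At 1.5-fold, 4 were higher in iCD8a and 2 in ILC1 than in CD11b+. At 4-fold, 0 were higher in iCD8a and 0 in ILC1, and 10 and 9 lower, than in CD11b+. Of single folds, 875 stayed within their counting interval and 85 did not, 58 of them without TMM factors. No median changed sign under these settings. The 1.5-fold rule used a near bound of 1.2 and gave 4 higher and 3 lower between iCD8a and ILC1. Shares of all genes called are given only for the main rule and at 4-fold. Counts under the other settings therefore cannot be set against all genes. Low counts limit Eno2, Fbp1, Pdk4 and Pfkfb1, and near-identical copies limit Gapdh, Eno1, Pgk1 and Pgam1. Thinning the libraries left 120 folds within their interval and 0 outside, and so did adding the counts of copies. The cause of the shifts was not tested.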
